A study of Mus musculus with 6 samples.

Results

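The genes described here encode the BCL2 family, the proteins that decide whether a cell keeps or opens its outer mitochondrial membrane. They were taken as 10 symbols: the survival genes Bcl2, Bcl2l1 and Mcl1, the pore-forming genes Bax and Bak1, and the BH3-only genes Bcl2l11, Bid, Bbc3, Pmaip1 and Bmf. Of these, 9 had a probe set with exactly 1 gene symbol, among 19938 genes so measured, and Bax was not analysed here. Each of the 9 had a single such probe set, so no choice between probe sets was needed.

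RNA was measured on 6 Affymetrix arrays, 3 from wild-type mice (Roquin+/+) and 3 from sanroque mice (Roquinsan/san, homozygous for a point mutation of the RNA-binding protein Roquin, gene Rc3h1). All mice were 10 weeks old, on a C57BL/6 background and untreated as far as the labels say. The material was CD44-low CD8+ T cells purified by cell sorting out of spleen and lymph node; the mutation is carried in the germline, so every cell of the animal has it and not the sorted T cells alone. The labels call the samples biological replicates. A pair of arrays stood apart from their groups: wild type replicate 2 had the highest B cell and myeloid marker signal of its group, and sanroque replicate 1 read 11.20 (log2 intensity) for Xist, the transcript of the inactive X chromosome, against 4.02 to 4.17 on the other 5 arrays.

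In naive T cells, survival depends on BCL2 and MCL1, which hold the pore formers BAX and BAK in check, and on cytokines such as interleukin 7 that keep these proteins present. BH3-only proteins are the sensors of the family: BIM (Bcl2l11), PUMA (Bbc3), NOXA (Pmaip1), BID and BMF bind the survival proteins when growth factor is lost, DNA is damaged or a death receptor is engaged. Once BAX or BAK opens the membrane, cytochrome c leaves and activates caspases through APAF1. BCL-XL, from Bcl2l1, is low in resting T cells and is induced by activation.

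In sanroque cells the survival genes Bcl2 and Bcl2l1 were higher, and so was Pmaip1, whose product NOXA binds MCL1. The rises were 1.30-fold, 1.28-fold and 1.57-fold. Of the 9 genes, 3 were called higher, 0 were called lower and 6 did not pass, at a limma p adjusted by the Benjamini-Hochberg method across the 19938 genes and a threshold of 0.05 (given below as the limma adjusted p). In the same comparison 5.77% of all genes were called, 3.26% higher and 2.51% lower. At an unadjusted p below 0.05, 4 of the 9 were higher (Bak1 with these 3) and 0 lower, against 18.9% of all genes in either direction. The median log2 fold (sanroque minus wild type) of the 9 genes was 0.23, against -0.03 over all genes. The calls did not hold when single arrays were left out, though the folds stayed positive. Omitting wild type replicate 1, 2 or 3 or sanroque replicate 2 left 0 of them, omitting sanroque replicate 1 left Pmaip1 alone, and omitting sanroque replicate 3 left Bcl2 and Bcl2l1. In that order, these fits called 218, 489, 881, 392, 603 and 1315 of all genes, against 1151 with all 6 arrays. Each such fit has fewer arrays for every gene.

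The upstream sequences of Bcl2 and Bcl2l1 are shown because these survival genes were higher together. Each is the 250 bases before the transcription start from RefSeq (build GRCm38.p6), both on the minus strand, with the most upstream start taken where the table has several. The table holds a window for 8 of the 9 measured genes. Capitals mark every match, on either strand, to GGGCGG (the GC box), TGACGT (the core of the cAMP response element), TATAAA (the TATA box) or TTCNNNGAA (the STAT palindrome).
Bcl2, chr1:106714291-106714540: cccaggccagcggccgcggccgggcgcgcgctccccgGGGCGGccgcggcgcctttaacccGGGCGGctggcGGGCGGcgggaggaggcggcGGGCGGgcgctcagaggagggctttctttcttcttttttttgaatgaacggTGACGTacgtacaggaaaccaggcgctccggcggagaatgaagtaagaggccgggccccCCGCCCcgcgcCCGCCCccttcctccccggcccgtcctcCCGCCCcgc
Bcl2l1, chr2:152831729-152831978: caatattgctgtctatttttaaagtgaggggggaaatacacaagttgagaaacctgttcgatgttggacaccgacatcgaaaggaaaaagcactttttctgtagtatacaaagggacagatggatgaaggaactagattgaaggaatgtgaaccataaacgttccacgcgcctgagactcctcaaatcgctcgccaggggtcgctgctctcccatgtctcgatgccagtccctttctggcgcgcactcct
The Bcl2 window held 7 GC boxes and 1 cAMP response core, and 74.8% of its bases were G or C. The Bcl2l1 window held no match to any of these 4 motifs and was 47.6% G or C, with a median of 52.4% over the 32851 windows of the table. A GC box occurs in 32.7% of those windows, the cAMP response core in 6.47%, the TATA box in 12.4% and the STAT palindrome in 7.02%. None of the 8 windows held a TATA box or a STAT palindrome, and GC boxes numbered 5 in Bbc3, 3 each in Bcl2l11 and Bid and 1 in Mcl1. These are matches of letters in these windows and are not measured sites. Bcl2l1 has 3 start windows in the table and the array does not tell which of them was in use.

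Bcl2, the founding survival gene of the family, gave 10.35, 10.51 and 10.46 on the wild-type arrays (replicates 1, 2 and 3) and 10.83, 10.83 and 10.79 on the sanroque arrays in the same order (log2 intensity). Every sanroque array was above every wild-type array, and the sanroque arrays lay closer together than the wild-type arrays. The means were 10.44 ± 0.08 and 10.82 ± 0.02 (SD, n = 3 each), a log2 fold of 0.38 ± 0.07 (SE; 95% interval 0.22 to 0.54; limma adjusted p = 0.0266). Leaving out single arrays moved this fold between 0.33 and 0.42, and the call was kept only without sanroque replicate 3 (limma adjusted p between 0.0424 and 0.126 over the 6 omissions).

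Bcl2l1, which encodes BCL-XL, gave 6.67, 6.69 and 6.62 on the wild-type arrays and 7.07, 7.02 and 6.96 on the sanroque arrays (log2 intensity, replicates 1 to 3). The groups were again separate, with little spread in either. The log2 fold was 0.36 ± 0.06 (SE; 95% interval 0.21 to 0.51; limma adjusted p = 0.0261), from 6.66 ± 0.03 to 7.02 ± 0.06 (SD, n = 3 each). It ranged from 0.33 to 0.39 over the 6 omissions of an array and stayed called only without sanroque replicate 3. It also lost its call when the variance prior followed the level (limma with trend and robust, Benjamini-Hochberg adjusted p = 0.0761).

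Mcl1 encodes a short-lived survival protein that T cells need at all stages. It gave 11.83, 12.07 and 11.87 on the wild-type arrays and 12.03, 12.12 and 12.31 on the sanroque arrays (log2 intensity). The groups overlapped, since wild type replicate 2 was above sanroque replicate 1. The fold was 1.17, with a 95% interval from 0.997 to 1.38, and missed the threshold (limma adjusted p = 0.277). A rise of Mcl1 as large as that of Bcl2 or Bcl2l1 was within this interval.

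**Figure D1:**
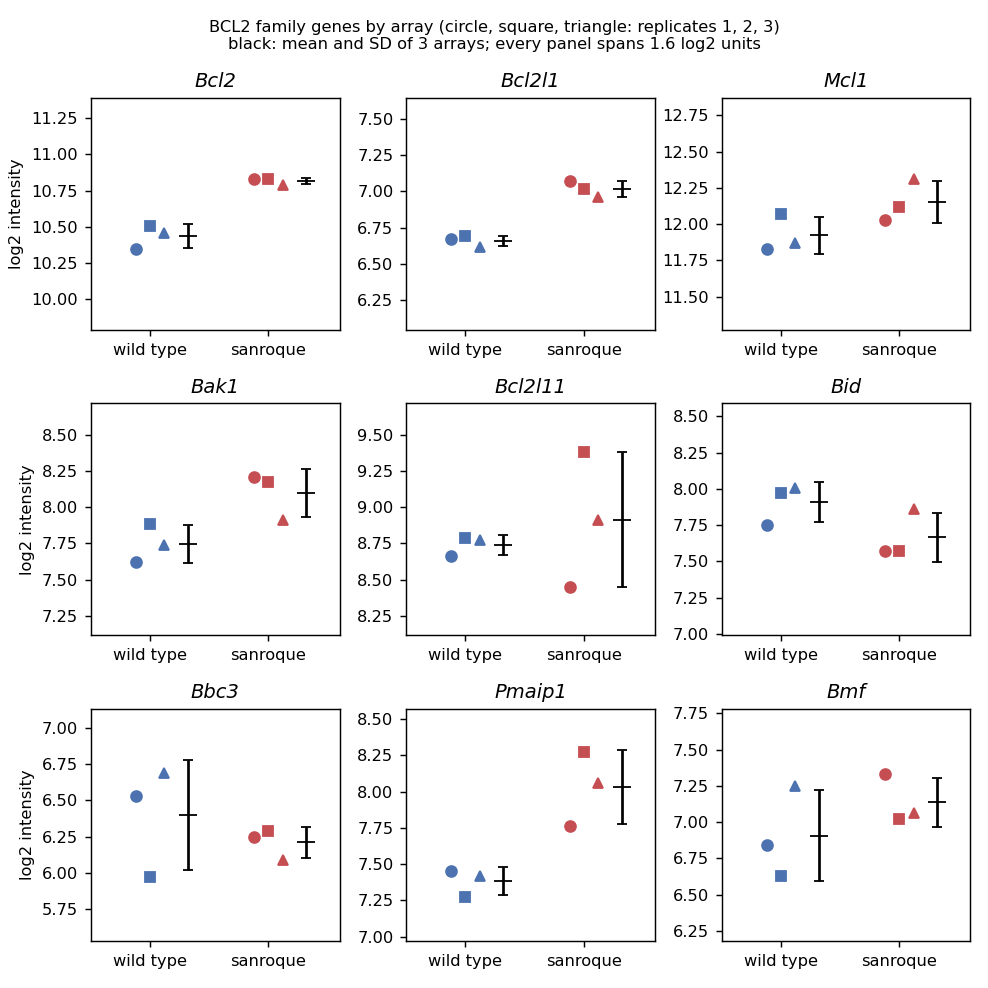
Log2 intensity of 9 BCL2 family genes in the 3 wild-type (blue) and 3 sanroque (red) arrays, 1 panel a gene and 1 symbol a replicate number, with mean and SD in black. The groups are separate for Bcl2, Bcl2l1, Bak1 and Pmaip1, and sanroque values of Bcl2l11 run from 8.45 to 9.38 around wild-type values of 8.66 to 8.79.

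Of the pore formers, Bak1 gave 7.62, 7.88 and 7.74 on the wild-type arrays and 8.21, 8.17 and 7.91 on the sanroque arrays (log2 intensity). All sanroque arrays were above all wild-type arrays, but sanroque replicate 3 was only just above wild type replicate 2. The log2 fold was 0.34 ± 0.11 (SE; 95% interval 0.09 to 0.60), near those of Bcl2 and Bcl2l1, with a larger replicate spread (SD 0.13 and 0.16), and it missed the threshold (limma adjusted p = 0.124). Across the family, 4 of the 9 genes had groups that did not overlap, all of them higher in sanroque, where 22.7% of all genes had such groups, 9.46% higher and 13.2% lower.

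Among the BH3-only genes, Pmaip1 had the largest fold. It encodes NOXA, a partner of MCL1 that is induced by p53 and by T cell activation. It gave 7.45, 7.27 and 7.42 on the wild-type arrays and 7.76, 8.27 and 8.06 on the sanroque arrays (log2 intensity). The groups did not overlap, and sanroque replicate 1 was the lowest sanroque array. The means were 7.38 ± 0.09 and 8.03 ± 0.26 (SD, n = 3 each), a log2 fold of 0.65 ± 0.13 (SE; 95% interval 0.34 to 0.96; limma adjusted p = 0.0366). Of all genes, 2.57% had a larger log2 fold. Of the 6 omissions of an array, only that of sanroque replicate 1 kept the call (log2 fold 0.79, limma adjusted p = 0.0184). Without sanroque replicate 2, the highest array, the log2 fold was 0.53 (limma adjusted p = 0.0933). Over the 6 omissions it lay between 0.53 and 0.79 with limma adjusted p from 0.0184 to 0.127.

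Bcl2l11 encodes BIM, the BH3-only protein that removes T cells deprived of cytokine. It gave 8.66, 8.79 and 8.77 on the wild-type arrays and 8.45, 9.38 and 8.91 on the sanroque arrays (log2 intensity). Sanroque replicate 1 was below all wild-type arrays and sanroque replicates 2 and 3 were above them. The SD was 0.07 in wild type and 0.47 in sanroque, and the log2 fold of 0.17 had a 95% interval from -0.32 to 0.67 (limma adjusted p = 0.799). Its direction rested on 1 array: without sanroque replicate 2 the log2 fold was -0.06.

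Bid, which is cut by caspase 8 or granzyme B to link death receptors and killer cell granules to mitochondria, was the gene with the lowest fold in the family. It gave 7.75, 7.97 and 8.01 on the wild-type arrays and 7.57, 7.57 and 7.86 on the sanroque arrays (log2 intensity). Sanroque replicates 1 and 2 were below all wild-type arrays and sanroque replicate 3 was not. The log2 fold of -0.24 had a 95% interval from -0.51 to 0.02 and missed the threshold (limma adjusted p = 0.306). It was negative in every alternative tried, between -0.34 and -0.16.

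Bbc3 (PUMA, a p53 target that binds all survival members) and Bmf (linked to loss of attachment and to the cytoskeleton) varied most among wild-type arrays. Bbc3 gave 6.53, 5.97 and 6.69 on the wild-type arrays and 6.25, 6.29 and 6.09 on the sanroque arrays (log2 intensity), so all sanroque values lay inside the wild-type range. Its log2 fold was -0.19 with a 95% interval from -0.61 to 0.23 (limma adjusted p = 0.723). Bmf gave 6.84, 6.63 and 7.25 on the wild-type arrays and 7.33, 7.02 and 7.06 on the sanroque arrays (log2 intensity). Wild type replicate 3 was above sanroque replicates 2 and 3, and the log2 fold of 0.23 had a 95% interval from -0.16 to 0.62 (limma adjusted p = 0.592).

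**Figure D2:**
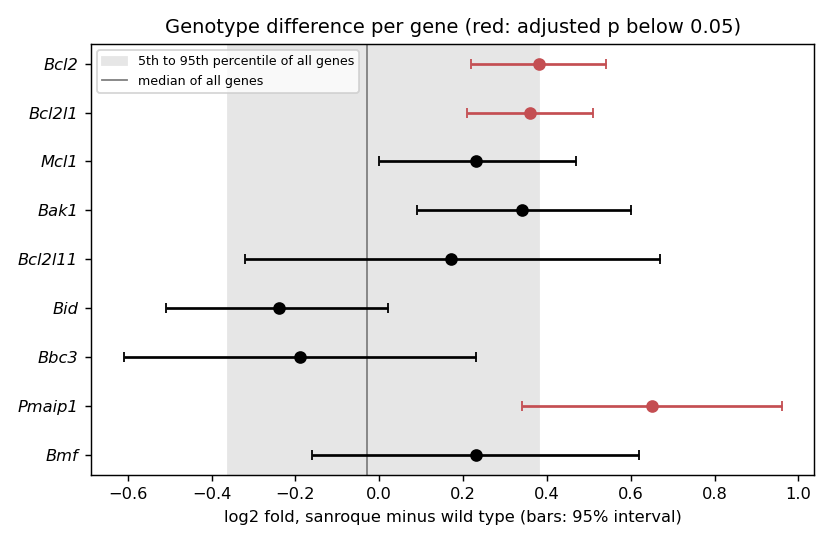
Log2 fold (sanroque minus wild type) of each BCL2 family gene with its unadjusted 95% interval from limma, red where the adjusted p was below 0.05. The grey band runs from -0.36 to 0.38, the 5th to 95th percentile of all 19938 genes. Pmaip1 at 0.65 lies beyond the band, Bcl2 and Bcl2l1 lie at its upper edge, and Bid and Bbc3 lie to the left of 0.

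The family works through binding between its members, so the log2 difference between a survival gene and a partner was taken in each array. Probe sets differ in brightness, so only the change of a difference between arrays can be read, and no test was made of these 7 pairs. Mcl1 minus Pmaip1 was 4.39, 4.79 and 4.45 on the wild-type arrays and 4.27, 3.85 and 4.25 on the sanroque arrays. This was the only pair of the 7 whose groups did not overlap, and it was lower by a mean of 0.42 in sanroque (group means 4.54 ± 0.22 and 4.12 ± 0.24, SD, n = 3 each). The log2 fold of Pmaip1 (0.65) was larger than that of Mcl1 (0.23) on these arrays, so this change is not an observation separate from those folds. Of single genes, 22.7% had groups that did not overlap.

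Bcl2 minus Bcl2l11 was 1.70, 1.72 and 1.68 on the wild-type arrays and 2.39, 1.45 and 1.88 on the sanroque arrays. The wild-type arrays were nearly equal (SD 0.02), whereas the sanroque arrays lay on both sides of them (SD 0.47). Bcl2l1 minus Bcl2l11 had the same shape, with -1.99, -2.10 and -2.15 on the wild-type arrays and -1.37, -2.36 and -1.95 on the sanroque arrays. Both differences share the Bcl2l11 values, so they are not separate observations. Bcl2l1 minus Bak1 had mean values of -1.09 and -1.07, a change of 0.01 between genes of opposite function. Mcl1 minus Bak1 changed by -0.11 and Bcl2 minus Bmf by 0.15, each with overlapping groups. The largest change of the 7 pairs, 0.56, was that of Bcl2 minus Bbc3. It was 3.82, 4.54 and 3.77 on the wild-type arrays and 4.58, 4.54 and 4.71 on the sanroque arrays. Its groups met at 4.54, the value of replicate 2 in both genotypes.

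**Figure D3:**
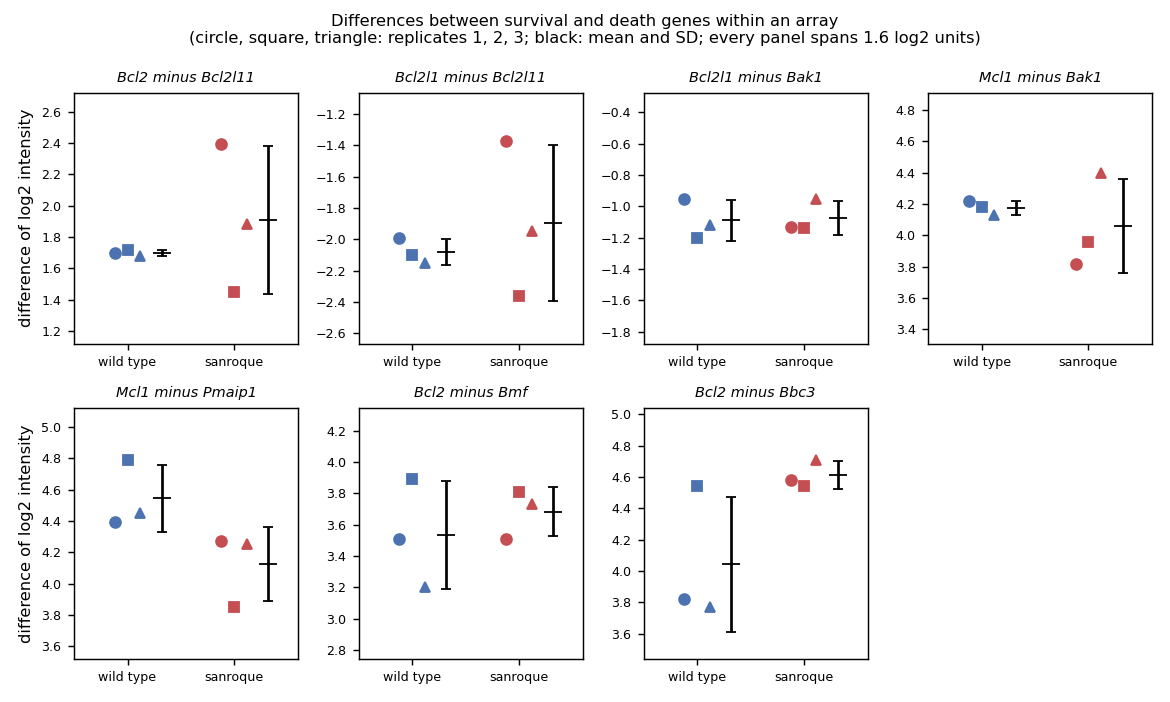
Difference of log2 intensity between a survival gene and a death gene in each array, for 7 pairs whose products bind each other (blue, wild type; red, sanroque; mean and SD in black). Sanroque values of Mcl1 minus Pmaip1 lie between 3.85 and 4.27, below the lowest wild-type value of 4.39, and sanroque values of Bcl2 minus Bcl2l11 spread from 1.45 to 2.39.

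The remaining family members showed no call. Of 16 further genes listed, 13 were measured, and 0 were called in either direction (limma adjusted p), where 5.77% of all genes were called. At an unadjusted p below 0.05, 2 of the 13 passed, both lower, where 18.9% of all genes passed. Their median log2 fold was -0.05, against 0.23 for the 9 genes above and -0.03 for all genes. The smallest p was that of Bcl2l12, a divergent member reported to restrain p53 and caspases, with 7.89, 7.97 and 7.97 on the wild-type arrays and 7.72, 7.74 and 7.68 on the sanroque arrays (log2 fold -0.23 ± 0.06, SE; limma adjusted p = 0.0895). The other with an unadjusted p below 0.05 was the mitophagy gene Bnip3, named after its value was seen (log2 fold -0.35; limma adjusted p = 0.256). The BH3-only genes Bad, Bik and Hrk had log2 folds of -0.15, -0.13 and -0.03, the pore-former relative Bok of -0.12 and the survival gene Bcl2l2 (BCL-W) of 0.18, and none passed.

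Downstream of the membrane, 14 of 16 genes were measured, of which 0 were called higher and 1 lower, with a median log2 fold of 0.01. The share called was 7.14% in this list and 5.77% over all genes. The gene called was Casp6, an executioner caspase, which gave 8.92, 8.65 and 8.57 on the wild-type arrays and 7.92, 7.95 and 8.31 on the sanroque arrays (log2 fold -0.65 ± 0.14, SE; limma adjusted p = 0.0399). Of the 6 omissions of an array, only that of sanroque replicate 3 kept the call, and the log2 fold lay between -0.78 and -0.55. Named after their values were seen, 5 more genes had groups that did not overlap and did not pass. With Casp6 this made 6 of the 14 genes, 3 higher and 3 lower. Over all genes, 22.7% had such groups, 9.46% higher and 13.2% lower. Apaf1, the apoptosome scaffold, had a log2 fold of 0.61, and the caspase inhibitor genes Xiap and Birc3 had 0.40 and 0.24. Diablo, whose product blocks those inhibitors, had -0.45 and the membrane channel gene Vdac3 had -0.29 (limma adjusted p = 0.0914, 0.143, 0.0957, 0.167 and 0.169). Cycs, the gene of cytochrome c, had a log2 fold of 0.00 with a 95% interval from -0.29 to 0.29.

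Of 18 genes for survival cytokine signalling and transcription factors of the family, 14 were measured, 1 was called higher and 1 lower, and the median log2 fold was 0.27. The share called was 14.3% in this list and 5.77% over all genes. Stat3, a cytokine-activated transcription factor of Bcl2, Bcl2l1 and Mcl1, gave 10.09, 10.08 and 9.95 on the wild-type arrays and 10.41, 10.74 and 10.92 on the sanroque arrays (log2 fold 0.65 ± 0.13, SE; limma adjusted p = 0.0345). Il7r, the receptor chain through which interleukin 7 maintains Bcl2 in naive T cells, moved the other way: it gave 12.61, 12.66 and 12.87 on the wild-type arrays and 11.74, 11.98 and 12.34 on the sanroque arrays (log2 fold -0.69 ± 0.15, SE; limma adjusted p = 0.0474). Bcl2 was higher in the same arrays in which Il7r was lower, and a relation between these genes was not tested. Of the 14 genes, 9 had an unadjusted p below 0.05 and were higher, and 1 lower, where 18.9% of all genes had an unadjusted p below 0.05. Of the 6 omissions of an array, Stat3 stayed called without sanroque replicate 1 or 3 (log2 fold 0.54 to 0.79 over the 6) and Il7r only without sanroque replicate 3 (-0.85 to -0.55). Under median centring, Stat3 gave a limma adjusted p of 0.0501.

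The 13 genes that act on the family's proteins (ubiquitin ligases, kinases, dynein light chains) had a median log2 fold of 0.19. Where 5.77% of all genes were called, 1 of these 13 was called higher and 0 lower. This was Akt1, a survival kinase that phosphorylates BAD, with 9.05, 9.04 and 8.97 on the wild-type arrays and 9.29, 9.35 and 9.28 on the sanroque arrays (log2 fold 0.28 ± 0.06, SE; limma adjusted p = 0.0491). It lost its call in each of the 6 omissions of an array (log2 fold 0.26 to 0.30), under median centring and among the genes above the median level. Of 14 further p53 targets, listed because Pmaip1 and Bbc3 are p53 targets too, 13 were measured and 0 were called (limma adjusted p). Cdkn1a was the target not measured, and Trp53, the gene of p53, was not measured either. At an unadjusted p below 0.05, 2 of the 13 passed, both higher, where 18.9% of all genes passed. These were Trp53inp1 and Sesn2, the latter named after its value was seen (log2 fold 0.37, limma adjusted p = 0.181). The median log2 fold of the 13 was 0.01. Trp53inp1, with the smallest p, had a log2 fold of 0.30 ± 0.09 (SE; limma adjusted p = 0.120), and Mdm2, the p53-induced inhibitor of p53, had -0.08.

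**Figure D4:**
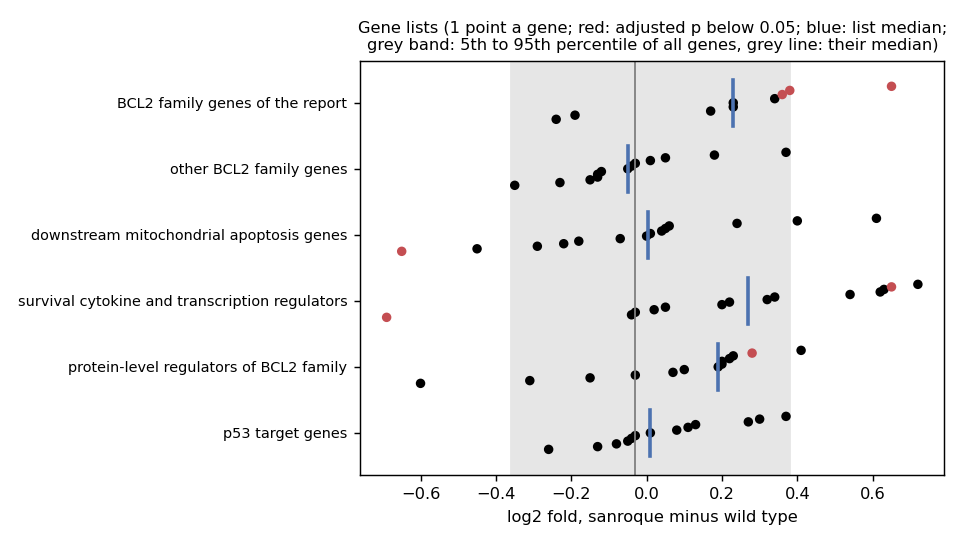
Log2 fold (sanroque minus wild type) of every measured gene in the BCL2 family and in 5 related lists, red where the adjusted p was below 0.05, with list medians in blue. Medians are 0.23 for the 9 BCL2 family genes, 0.27 for survival cytokine and transcription regulators, 0.19 for protein-level regulators and between -0.05 and 0.01 for the other lists; the grey band is the 5th to 95th percentile of all genes.

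The arrays read high for the CD8 T cell markers, with Cd8a at 13.02 ± 0.03 in wild type and 13.00 ± 0.02 in sanroque and Cd3g at 13.06 ± 0.04 and 12.92 ± 0.08 (log2 intensity, SD, n = 3 each). Of 9 measured CD8 T cell genes 0 were called higher and 2 lower, the receptor chain genes Cd3d (log2 fold -0.52) and Cd247 (-0.33), both named after their values were seen. Markers of B cells, myeloid cells and cycling cells moved with genotype, in a comparison where 3.26% of all genes were called higher and 2.51% lower. Counts for the remaining marker lists, some with few or 0 genes called, are given with the processing. Of 12 B cell genes 7 were called higher and 0 lower, and the list's summed intensity ran from 2241 to 5618 in wild type and from 8522 to 10466 in sanroque. Of 15 monocyte, macrophage and neutrophil genes 14 were called higher, with sums of 983 to 1650 and 7888 to 12567. Of 8 genes of cycling cells 5 were called higher, with sums of 353 to 370 and 1088 to 1206. The summed intensity of the 9 CD8 T cell genes was 42632 to 43936 in wild type and 38511 to 40377 in sanroque. Cd44, the gene of the sort marker, was 2.63-fold higher in sanroque, and the mutated gene Rc3h1 had a log2 fold of 0.14 that missed the threshold. Every such gene gives some signal on an array, so none reads 0. The BCL2 family genes are expressed in B cells, myeloid cells and activated T cells as well, and the part of these cells in the differences of Bcl2, Bcl2l1, Pmaip1 and the other genes called above was not tested. In sorted bulk cells, a change in the mix of cells and a change of RNA per cell cannot be told apart.

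Within wild type, replicate 2 had the highest B cell and myeloid sums (5618 and 1650). It also had the highest Bcl2 (10.51), Bcl2l1 (6.69), Mcl1 (12.07), Bak1 (7.88) and Bcl2l11 (8.79), and the lowest Pmaip1 (7.27), Bbc3 (5.97) and Bmf (6.63). Within sanroque, replicate 1 had the highest myeloid sum (12567) and the lowest Pmaip1 (7.76), Mcl1 (12.03) and Bcl2l11 (8.45). The same array had the highest Bcl2l1 (7.07), Bak1 (8.21) and Bmf (7.33), and shared the highest Bcl2 (10.83) with replicate 2. This is also the array with the high Xist reading. Without both wild type replicate 2 and sanroque replicate 1, the log2 folds of Bcl2, Bcl2l1 and Pmaip1 were 0.41, 0.34 and 0.73, and of these 3 Pmaip1 alone was called (limma adjusted p = 0.0494).

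**Figure D5:**
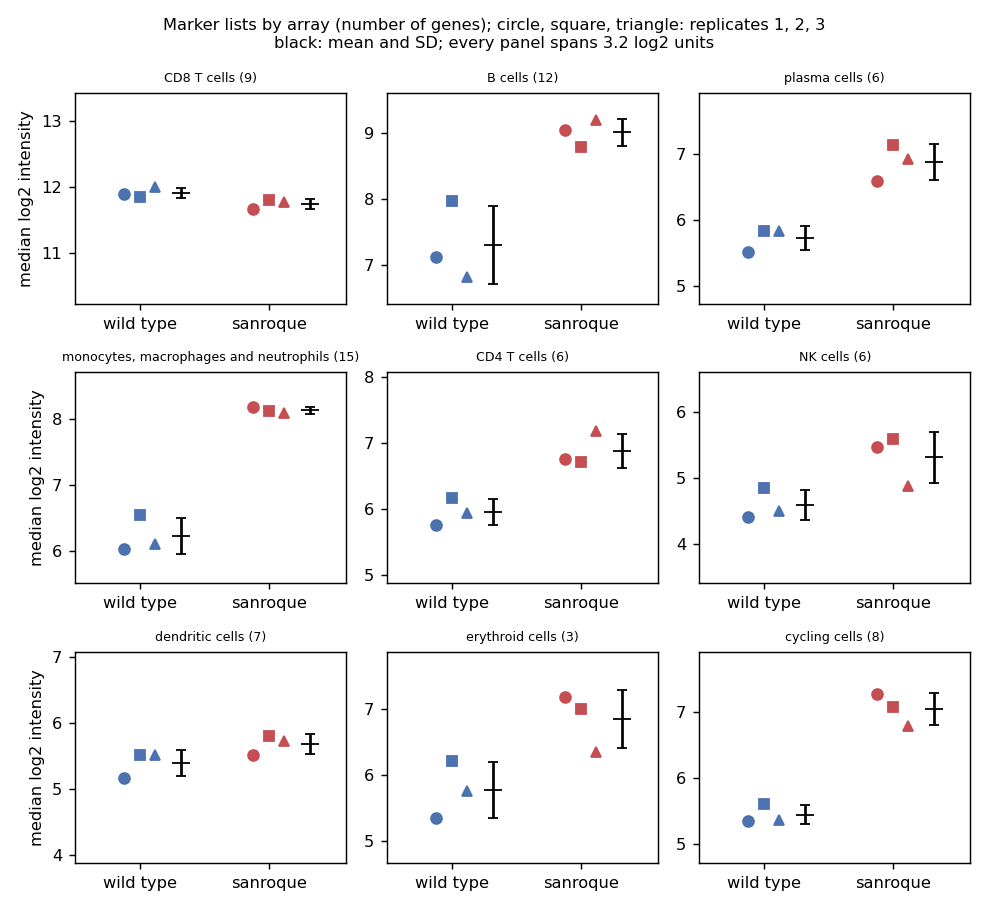
Median log2 intensity of 9 marker lists in each array, with the number of genes in each (blue, wild type; red, sanroque; mean and SD of 3 arrays in black). The CD8 T cell medians of all 6 arrays lie at 11.67 or above, while B cell, myeloid and cycling cell medians of every sanroque array lie above those of every wild-type array.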

How the data were processed

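Per the labels' protocols, biotinylated cRNA was hybridised to Affymetrix arrays. The file deposited for the series holds a linear intensity for each of 35399 probe sets on each array (9.56 to 31996). The submitters' processing notes name Partek and give it no role. How the authors corrected background, summarized probes and normalized is not stated in what was used here. Array medians lay between 5.74 and 5.83 on the log2 scale, so log2 values were used as they stood. The number of arrays, 3 per genotype, limits the precision. Symbols came from the platform annotation, updated through RefSeq (GRCm38.p6; 19856 of 19938 genes matched), keeping the brightest single-symbol probe set per gene.

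All 19938 genes were fitted with limma 3.58.1 (lmFit, eBayes; R 4.3.3), two-sided, with no filter, and Benjamini-Hochberg adjustment over all genes; the script was tested on simulated data. Intervals are unadjusted. Each p-value sets the difference between the group means against the spread between arrays within groups, moderated across all genes.

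The members and lists were chosen with earlier results of these data known. Named were all members, then up to 3 called genes per pathway list with the largest fold, or the 1 with the smallest p. So were the 2 brightest genes of a marker list where given, Cd44 and Rc3h1. Outside this rule, Bad, Bik, Hrk, Bok, Bcl2l2, Bcl2a1c, Cycs, Mdm2 and Xist were also named. The same holds for the genes marked as named after their values were seen. Of the 9 marker lists, those for plasma, CD4 T, NK, dendritic and erythroid cells had 4 of 6, 3 of 6, 1 of 6, 1 of 7 and 0 of 3 genes called higher and 0 lower. Alternatives covered probe sets, dim genes, normalization, variance model, array weights, the replicate number as a block and each array left out. Leaving out 2 arrays together and a fit over all probe sets were chosen after seeing the data. Figures used matplotlib 3.10.9 in Python 3.11.15.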

Additional observations from a re-analysis of the deposited data

Results flagged for a closer look

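The family's A1 genes, survival genes of activated lymphocytes and of myeloid cells, are near-identical copies, and 3 probe sets carry the symbols of 4 of these Bcl2a1 paralogs jointly, so no single gene can be named from them and they entered no comparison above. For all 3 the sanroque arrays lay above the wild-type arrays without overlap, with log2 folds of 0.99, 0.86 and 0.90. Over all genes, 22.7% had groups that did not overlap, 9.46% higher and 13.2% lower. That share was not computed over all probe sets. The 3 shared probe sets read between 5.53 and 6.80 in wild type and between 6.36 and 7.91 in sanroque (log2 intensity). Sanroque replicate 2 was the highest array for each. In a fit over all 35399 probe sets they did not pass (limma adjusted p = 0.190, 0.206 and 0.192). The probe sets share sequence targets and are not separate observations. The dim probe set that names Bcl2a1c alone had a log2 fold of 0.37 (limma adjusted p = 0.424). The monocyte, macrophage and neutrophil markers were higher in the same arrays (sums of 983 to 1650 in wild type and 7888 to 12567 in sanroque), and their part in this difference was not tested.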

How the results depend on the processing

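Array weights raised the counts called to 4733 of all genes, 5 of the 9 BCL2 family genes (Mcl1 and Bak1 added), 4 further family genes, 7 downstream genes, 8 survival cytokine and transcription regulators, 8 protein-level regulators and 2 p53 targets. With the replicate number as a block the counts were 301, 0 of the 9, 0 downstream, 1 regulator of survival and 0 protein-level. Same-numbered arrays had deviations from their group means that correlated at -0.05, -0.16 and -0.36, and differently numbered arrays at -0.17 to 0.29. With 3 arrays a group these values cannot decide whether the numbers pair the arrays, and the labels do not state it. Without wild type replicate 2 and sanroque replicate 1 together the counts were 353, 1, 0 downstream and 0 protein-level. Leaving out each array gave 218 to 1315 of all genes, 0 to 2 of the 9, 0 to 1 downstream, 0 to 3 regulators of survival, 0 to 1 protein-level and 0 to 1 p53 target. Genes above the median level gave 2 downstream; median centring gave 1 regulator of survival and 0 protein-level, trend and robust gave 4 and 0, and quantile normalization gave 3 protein-level. The folds of Bcl2, Bcl2l1 and Pmaip1 stayed positive in all 15 alternatives, called in 8, 7 and 9. Bcl2l11 ranged from -0.06 (without sanroque replicate 2) to 0.41 over the arrays left out, and Bmf was -0.01 without the 2 arrays. The cause was not tested. With 3 arrays a group, Mcl1, Bak1 and Bid missed the threshold (limma adjusted p = 0.277, 0.124 and 0.306).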
